A study of Mus musculus with 6 samples.

Results

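The 10 heat shock genes described here are Hspa1a, Hspa8, Hsp90aa1, Hsp90ab1, Hspb1, Hspd1, Hspe1, Hsph1, Dnajb1 and Hsf1, of 28312 gene names on the array. They were chosen by name, with earlier results of these data known. They were read by 15 of the 39429 probes that are not controls. RNA was measured on 6 single-colour Agilent microarrays of sorted myeloid cells. The heart group (heart 1, 2 and 4) holds 3 infarcted left ventricles and the spleen group (spleen 1, 2 and 4) holds 3 spleens, all of wild-type C57BL/6N mice on day 3 after acute myocardial infarction (AMI). Mice without an infarct are not among these groups. In both tissues the sort took cells with high CD45 (a leukocyte antigen) and high CD11b (a myeloid integrin), and left out cells stained for lineage antigens: Ly6G of neutrophils, CD45R/B220 of B cells, CD90.2/Thy-1.2 of T cells, and CD49b/DX5 and NK-1.1 of natural killer cells. Organs were not pooled, and the labels leave unsaid whether equal numbers in the 2 groups mean the same mouse.

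Heat shock proteins are molecular chaperones, which bind unfolded or partly folded proteins, keep them from aggregating and help them to reach their folded state. The HSP70 proteins work in cycles of ATP binding and hydrolysis that are driven by J-domain proteins and by nucleotide exchange factors, and they hand some clients on to the HSP90 proteins or to barrel-shaped chaperonins. Under heat, oxidative stress or misfolding, the transcription factor HSF1 is released from chaperones, binds heat shock elements in promoters and induces the stress-responsive members of these families. In the infarcted heart, macrophages and monocytes work in a tissue short of oxygen and full of dying cells.

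A heat shock element is built from repeats of the letters nGAAn in alternating orientation. RefSeq windows of 300 bases, 250 before to 50 after a transcription start, were at hand for 6 of the 10 genes (Hspa1a, Hspb1, Hspd1, Hspe1, Hsph1 and Dnajb1), as 9 windows of the assembly GRCm38.p6. The short form of the element was searched as GAANNTTC or TTCNNGAA, each of which reads the same on both strands, and the long form as GAANNTTC followed after 2 further bases by GAA, or TTCNNGAA followed after 2 further bases by TTC. The long forms are each other's reverse complement and contain the short form. The short form stood in 15.1% of all 32851 windows and in 6 of the 9 windows, those of Hspa1a, Hspb1, Hspd1, Hspe1 and Hsph1. The long form stood in 0.603% of all windows and in 4 of the 9, those of Hspd1, Hspe1 and Hsph1. Windows of Hspd1 and Hspe1 overlap and so count the same letters in each, as do those of Hsph1. A match describes the letters and does not show that HSF1 binds there. The stretches just before the start site are shown for Hspa1a and Hspb1, which had the largest differences between the tissues, and for Hspe1 and Hsph1, which carry the long form. They run in the direction of transcription and the capitals mark matches to the short form.
Hspa1a (chr17:34972157-34972306, minus strand): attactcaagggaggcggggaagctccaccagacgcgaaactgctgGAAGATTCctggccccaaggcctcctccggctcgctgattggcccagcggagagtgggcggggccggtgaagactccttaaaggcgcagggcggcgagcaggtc
Hspb1 (chr5:135887769-135887918, plus strand): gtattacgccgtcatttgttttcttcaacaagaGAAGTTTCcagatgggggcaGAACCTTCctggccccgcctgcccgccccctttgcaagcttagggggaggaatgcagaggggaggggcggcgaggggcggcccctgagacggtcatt
Hspe1 (chr1:55087998-55088147, plus strand): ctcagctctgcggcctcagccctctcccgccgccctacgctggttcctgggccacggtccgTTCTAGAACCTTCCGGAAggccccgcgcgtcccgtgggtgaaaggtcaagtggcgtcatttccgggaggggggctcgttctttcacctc
Hsph1 (chr5:149636337-149636436, minus strand): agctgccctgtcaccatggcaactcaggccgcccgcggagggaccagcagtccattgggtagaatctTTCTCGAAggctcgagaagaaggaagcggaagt
The match of Hspa1a begins 104 bases before the start site, and those of Hspb1 begin 117 and 97 bases before it. Hspe1 and Hspd1 are transcribed away from each other, and the 3 overlapping matches of Hspe1, which begin 89, 84 and 79 bases before its start, are the same letters as those of Hspd1 on the other strand. Hsph1 has the short form upstream of both annotated start sites (54 or 33 bases before them), while its long form lies after the start site and is not shown.

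Levels are given as log2 of the scanner's processed signal minus the 75th percentile of that array, so that 0 is the level below which 75% of its probes lie. A level belongs to its probe, and levels of different genes are not set against each other. The 75th percentile itself lay between 1451 and 1870 signal units, the share of probes well above background was 52.8% to 63.6%, and 0 spots were saturated. A difference is the heart mean minus the spleen mean on the log2 scale, with its standard error (SE) from limma, and calls were made where the p, adjusted over 16365 tested genes by the Benjamini-Hochberg method, was under 0.05. Of these, 15.4% were called, 8.88% higher in heart and 6.52% lower. With 3 arrays a tissue, the number of arrays limits the precision.

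Spleen 1 stood apart from the other two spleen arrays in marker genes of cells that the sort should leave out. Summed over 6 B cell genes, the signal relative to the 75th percentile of the array was 105.7 in spleen 1, against 4.24 in spleen 2 and 3.66 in spleen 4. For 6 T cell genes the sums were 41.1, 1.86 and 0.894, and for 5 natural killer cell genes they were 46.3, 2.99 and 3.00. All of these markers were above background in spleen 1, whereas 4 of the 6 T cell genes (Cd3d, Cd3g, Trat1 and Cd8a) were not above background on any heart array. Monocyte and macrophage genes, all 11 of them above background on every array, summed to 587 to 660 in heart and to 194, 360 and 442 in spleens 1, 2 and 4, so that the labelled myeloid cells carried their defining markers in both tissues. Genes of neutrophils and their precursors (11 of 12 listed had a probe; Ly6g had none) summed to 25.1 to 32.4 in heart and 550 to 1352 in spleen, although Ly6G was used to deplete neutrophils. Differences of the 10 genes, and of the list genes named for the size of their change or their brightness, are therefore also given without spleen 1. The RNA came from whole sorted populations, in which a lower level can mean fewer cells of a type or less RNA per cell, and the arrays cannot tell these apart.

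**Figure D1:**
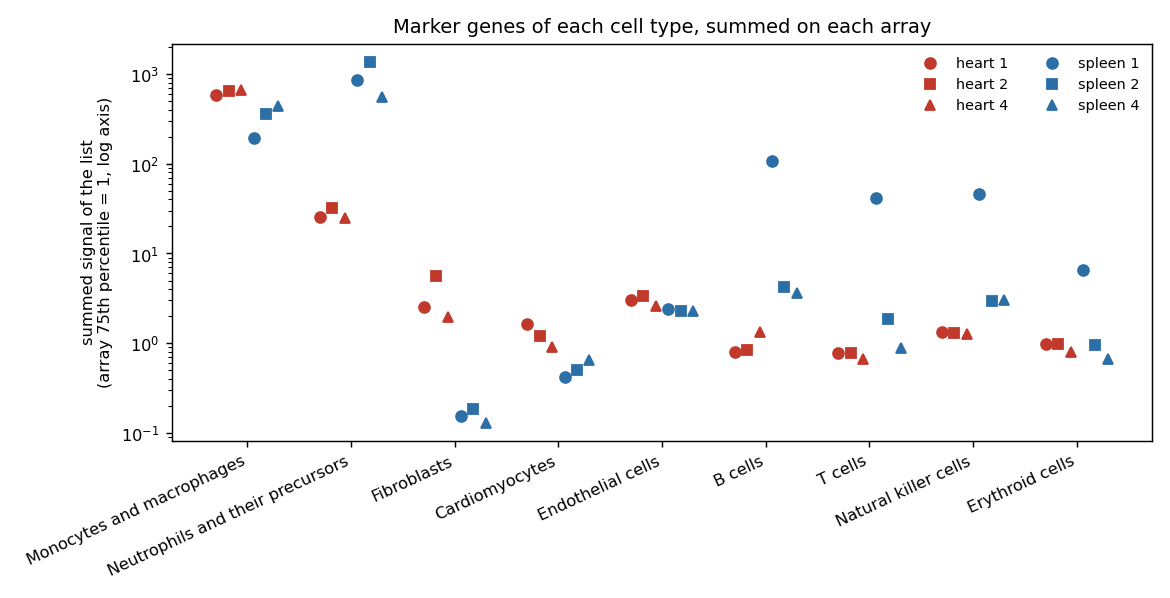
Summed signal of the marker genes of 9 cell types on each array, relative to the 75th percentile of the array (log axis); red symbols are heart and blue symbols spleen arrays, 3 of each. Spleen 1 (blue circle) lies above the other spleen arrays for B cell, T cell, natural killer cell and erythroid genes, at 105.7, 41.1, 46.3 and 6.49.

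All 10 heat shock genes were tested, and 9 of them were well above background on all 6 arrays. Hspa1a was the only one called, so that 1 of 10 was called higher in heart, beside 8.88% of all tested genes, and 0 were called lower. At an unadjusted p under 0.05 there were 5 of 10 (31.6% of all tested genes). The mean was higher in heart for 10 of 10 genes, and for 8 of 10 with quantile scaling or in the authors' deposited values, where Hspe1 and Hsf1 turned. The median difference of the 10 genes was 0.45, against 0.10 for all genes. Of the 10 genes, 9 lay above the median of all genes. With quantile scaling or in the authors' deposited values, 7 of 10 lay above the all-gene median of that fit. With each gene read from its brightest tested probe, every heart array lay above every spleen array in 7 of 10 genes. This held for 24.1% of all tested genes (16.6% had all hearts lower, 40.7% either). The share called is near that of all genes, and the differences above 1 were those of Hspa1a and Hspb1.

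**Figure D2:**
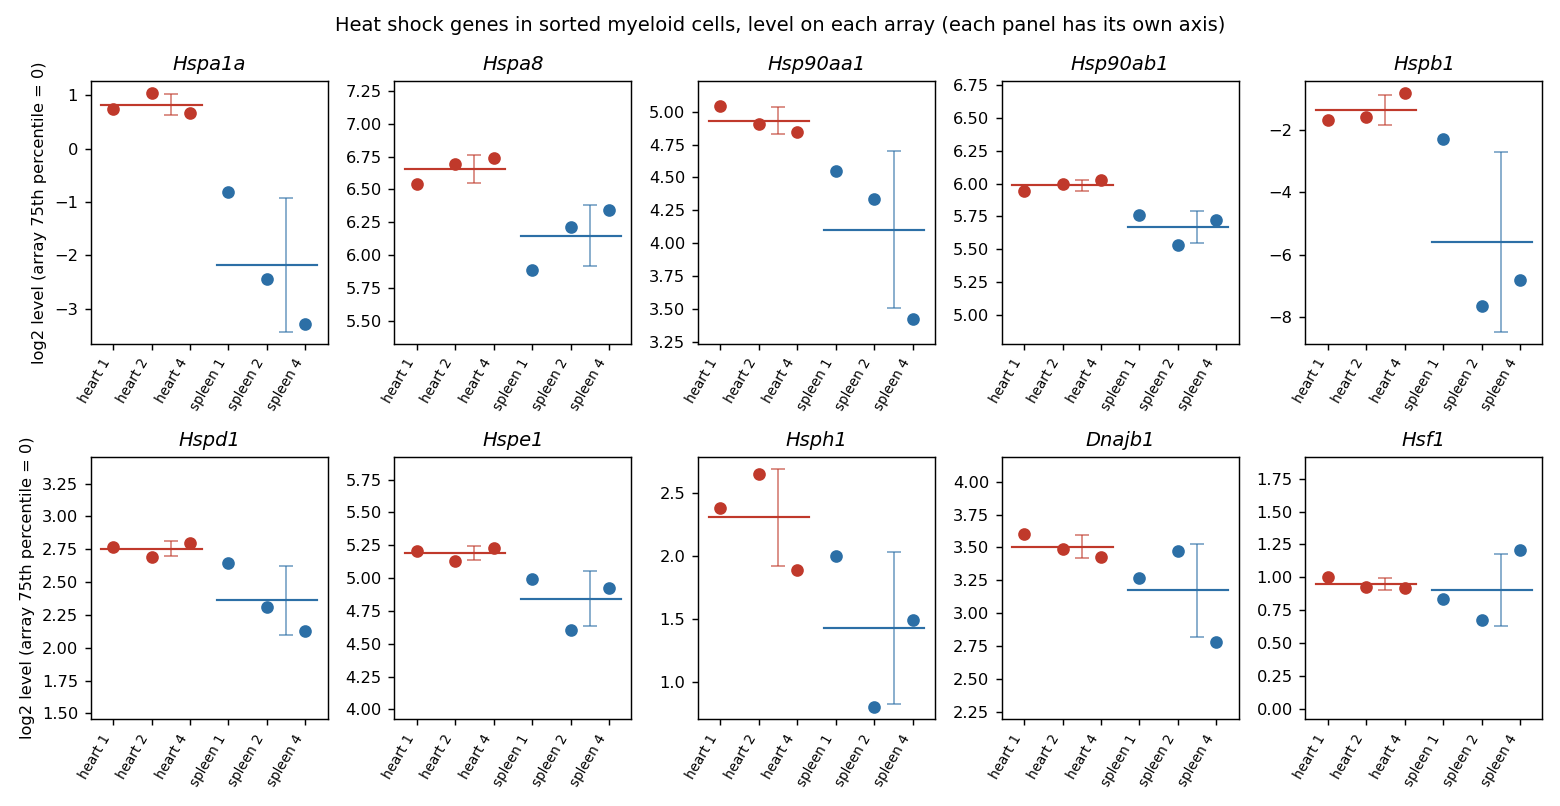
Log2 level of each of the 10 heat shock genes on the 3 heart arrays (red) and the 3 spleen arrays (blue), relative to the 75th percentile of the array; horizontal lines are means, bars are 1 SD, and each panel has its own axis. Heart and spleen arrays do not overlap except for Hsph1, Dnajb1 and Hsf1, and the lowest spleen levels of Hspa1a and Hspb1 are −3.28 and −7.67.

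Hspa1a encodes the stress-inducible HSP70, which is nearly silent in many unstressed cells. Its log2 level was 0.75, 1.04 and 0.67 in hearts 1, 2 and 4 and −0.82, −2.43 and −3.28 in spleens 1, 2 and 4. In signal units these were 2540, 2990 and 2690 in heart and 1060, 294 and 171 in spleen. All heart arrays lay above all spleen arrays, and the spleens spread far more widely than the hearts, with spleen 1 the nearest to the hearts. The hearts had a mean of 0.82 ± 0.20 (SD, n = 3) and the spleens one of −2.18 ± 1.25 (SD, n = 3). The difference was 3.00 ± 0.59 (SE, adjusted p = 0.0230) with a 95% interval from 1.58 to 4.42.

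Without spleen 1 the difference of Hspa1a was 3.68 (adjusted p = 0.00267), and without spleen 4 it was 2.45 (0.0196). It was no longer called without heart 1 (3.03, adjusted p = 0.0889), heart 2 (2.89, 0.0947), heart 4 (3.07, 0.0859) or spleen 2 (2.87, 0.0650). The titles give 2 dates whose meaning is not stated; on the earlier date, which holds 2 hearts and 2 spleens, the difference was 2.52 (adjusted p = 0.0747; 6.32% of all genes were called higher there), and on the later, heart 4 lay 3.95 above spleen 4. Slide 2 alone held both tissues, and there heart 1 lay 4.03 above spleen 4 (adjusted p = 0.122 with slide as a fixed block, when 0.44% of all genes were called higher). Since all hearts lay above all spleens, heart had to be higher on each date and within slide 2. The pairs of the later date and of slide 2 share spleen 4, the lowest spleen. The slide 2 pair also sets a heart of the earlier date against a spleen of the later date.

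The probe of Hspa1a lies at mm9 chr17:35107117-35107176 on the minus strand and has the sequence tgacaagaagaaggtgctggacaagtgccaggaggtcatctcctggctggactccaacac. It is shown because the file also lists it under the accession of Hspa1b, the near-identical copy of Hspa1a. Hspa1b had no probe of its own, so the signals of the 2 genes cannot be told apart.

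Hspa8 encodes HSC70, the constitutive HSP70, which also uncoats clathrin vesicles and takes part in chaperone-mediated autophagy. Its log2 level was 6.54, 6.69 and 6.74 in hearts 1, 2 and 4 and 5.89, 6.21 and 6.34 in spleens 1, 2 and 4. The hearts lay above the spleens without overlap, and the lowest heart exceeded the highest spleen by 0.20, less than the SD of 0.23 over the spleens. The difference was 0.51 ± 0.19 (SE, adjusted p = 0.127; 95% interval 0.049 to 0.97), and for Hspa8 it was 0.38 (adjusted p = 0.170) without spleen 1, 0.30 with quantile scaling and 0.20 within slide 2. By the brightest probe of Hspa8, spleen 1 was the lowest spleen, the reverse of its place for Hspa1a. Hspa8 has 3 probes, 1 of which has 60 bases but an alignment over 296 bases of mm9, with a gap: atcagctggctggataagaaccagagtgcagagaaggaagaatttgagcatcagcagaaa (chr9:40612755-40613050, plus strand). The differences read by the 3 probes were 0.51, 0.53 (adjusted p = 0.159 over all tested probes) and 0.49 (0.275), so that they gave nearly the same value. The order of the arrays was not the same for all of them. By the probe that gave 0.49, spleen 4 was the lowest spleen (2.84, against 2.96 in spleen 1). By that probe the tissues also overlapped, with spleen 2 (3.70) above heart 1 (3.47).

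Dnajb1 and Hsph1 encode partners of HSP70. DNAJB1 is the J-domain protein that stimulates ATP hydrolysis by HSP70 and delivers clients to it, and its log2 level was 3.60, 3.49 and 3.43 in hearts 1, 2 and 4 and 3.27, 3.47 and 2.78 in spleens 1, 2 and 4. Spleen 2 lay within the range of the hearts, and the difference was 0.33 ± 0.23 (SE, adjusted p = 0.367; 95% interval −0.21 to 0.87). For Dnajb1 it was 0.38 without spleen 1, 0.14 without spleen 4, 0.033 with quantile scaling and 0.82 within slide 2. Hsph1 encodes HSP110, an HSP70 relative that exchanges its nucleotide and helps to dissolve aggregates. The log2 level of Hsph1 was 2.38, 2.65 and 1.89 in hearts 1, 2 and 4 and 2.00, 0.80 and 1.49 in spleens 1, 2 and 4. Heart 4 lay below spleen 1, so the tissues overlapped. The difference was 0.88 ± 0.36 (SE, adjusted p = 0.153; 95% interval 0.013 to 1.74), and for Hsph1 it was 1.16 (adjusted p = 0.0664) without spleen 1 and 0.56 (adjusted p = 0.286) without spleen 2. The other probe of Hsph1 gave 0.98 (adjusted p = 0.118 over all tested probes).

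The HSP90 proteins hold kinases, steroid receptors and other signalling proteins in a state ready for activation. Hsp90aa1, the stress-inducible cytosolic form, had log2 levels of 5.05, 4.91 and 4.85 in hearts 1, 2 and 4 and 4.55, 4.34 and 3.42 in spleens 1, 2 and 4. The hearts lay close together and above all spleens, and spleen 4 was the lowest. The difference was 0.83 ± 0.31 (SE, adjusted p = 0.128; 95% interval 0.077 to 1.59), and for Hsp90aa1 it was 1.05 (adjusted p = 0.0694) without spleen 1, 0.49 (adjusted p = 0.0862) without spleen 4, 0.45 with quantile scaling and 1.62 within slide 2. Hsp90ab1, the constitutive cytosolic form, had log2 levels of 5.94, 6.00 and 6.02 in the hearts and 5.76, 5.53 and 5.72 in the spleens in the same order. It was the least variable of the 10 genes over the spleens, with an SD of 0.12 (n = 3). The difference of Hsp90ab1 was 0.32 ± 0.16 (SE, adjusted p = 0.242; 95% interval −0.076 to 0.71), 0.36 without spleen 1 and 0.053 with quantile scaling.

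Hspb1 encodes the small heat shock protein HSP25, which holds unfolded proteins without ATP and binds to the actin cytoskeleton. Its log2 level was −1.67, −1.56 and −0.79 in hearts 1, 2 and 4 and −2.27, −7.67 and −6.81 in spleens 1, 2 and 4, or 474, 492 and 973 signal units against 387, 7.81 and 14.8. Spleen 1 lay 4.54 above the next spleen and close to the hearts, and it was the only spleen array on which the probe was well above background. The hearts had a mean of −1.34 ± 0.48 (SD, n = 3), the spleens one of −5.58 ± 2.90 (SD, n = 3). The difference of 4.24 ± 1.34 (SE) was the largest of the 10 genes but did not pass (adjusted p = 0.0838; 95% interval 1.03 to 7.46), and it was 2.95 with the 2 dim spleens held at the lowest level that counted as above background.

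Without spleen 1, neither remaining spleen array gave an Hspb1 signal above background, and Hspb1 was at least 15.6-fold higher in heart, with a fitted adjusted p of 0.00157. Hspb1 and Hspa1a were then called, 2 of 10 genes, beside 9.41% of all genes called higher in that fit. Hspb1 was also called with arrays scaled to their median (4.37, adjusted p = 0.0455), with normexp background correction (2.38, 0.0482) and with array weights per tissue (4.24, 0.0420). The Hspb1 level of spleen 1 stands beside that array's B cell, T cell and natural killer cell sums of 105.7, 41.1 and 46.3, and the part of those cells in the Hspb1 value was not tested. In heart, markers of fibroblasts summed to 1.95 to 5.60 (0.129 to 0.187 in spleen) and those of cardiomyocytes to 0.905 to 1.66 (0.424 to 0.658 in spleen). Both cell types can express Hspb1. Of 8 fibroblast genes, 5 were tested and 5 were called higher in heart. Of 12 cardiomyocyte genes, 8 were tested and 4 were called higher in heart (Actc1, Mb, Myl2 and Myl3), beside 8.88% of all tested genes. Actc1 and Mb were above background on all 3 hearts and on none of the spleens. Myh6 was higher in heart but did not pass (adjusted p = 0.0650). Ckm (0.19, adjusted p = 0.699), Nppa (0.24, 0.695) and Tnni3 (−0.13, 0.884) did not pass either. Pln and Ttn were not above background on any array. Endothelial cell markers summed to 2.62 to 3.37 in heart and 2.26 to 2.38 in spleen. Of 4 tested endothelial genes, 3 had a higher mean in heart and 1 was called higher (Cdh5, 2.50, adjusted p = 0.0289). The part of any of these cell types in the heart values was not tested.

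Hspd1 and Hspe1 encode HSP60 and HSP10, the barrel and the lid of the mitochondrial chaperonin, and share the promoter stretch shown above. The log2 level of Hspd1 was 2.77, 2.69 and 2.80 in hearts 1, 2 and 4 and 2.64, 2.31 and 2.13 in spleens 1, 2 and 4. That of Hspe1 was 5.21, 5.13 and 5.23 in the hearts and 5.0, 4.61 and 4.93 in the spleens in the same order. In both genes the hearts lay within a narrow range just above spleen 1. The differences were alike, 0.39 ± 0.20 (SE, adjusted p = 0.224; 95% interval −0.076 to 0.86) for Hspd1 and 0.35 ± 0.18 (SE, adjusted p = 0.245; 95% interval −0.087 to 0.78) for Hspe1. Without spleen 1 they were 0.54 for Hspd1 and 0.42 for Hspe1. Hspd1 was 0.16 with quantile scaling and 0.64 within slide 2. Hspe1 turned to −0.015 with quantile scaling and to −0.012 in the authors' deposited values. Its other probes gave 0.21 (adjusted p = 0.675 over all tested probes) and 0.34 (0.302), the former with the probe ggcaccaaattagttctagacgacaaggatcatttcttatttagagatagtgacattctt, which spans 327 bases of mm9 (chr1:55147620-55147946, plus strand).

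Hsf1 encodes the transcription factor that turns on the heat shock response and that is mainly regulated as a protein. Its log2 level was 1.0, 0.92 and 0.92 in hearts 1, 2 and 4 and 0.83, 0.67 and 1.21 in spleens 1, 2 and 4. The spleens lay on both sides of the hearts. The difference was 0.045 ± 0.20 (SE, adjusted p = 0.903), with a 95% interval from −0.43 to 0.52. It was 0.010 without spleen 1, and its sign turned with quantile scaling (−0.030), in the authors' deposited values (−0.027), within slide 2 (−0.20) and without spleen 2 (−0.071). Of the 10 genes, Hsf1 had the smallest difference.

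**Figure D3:**
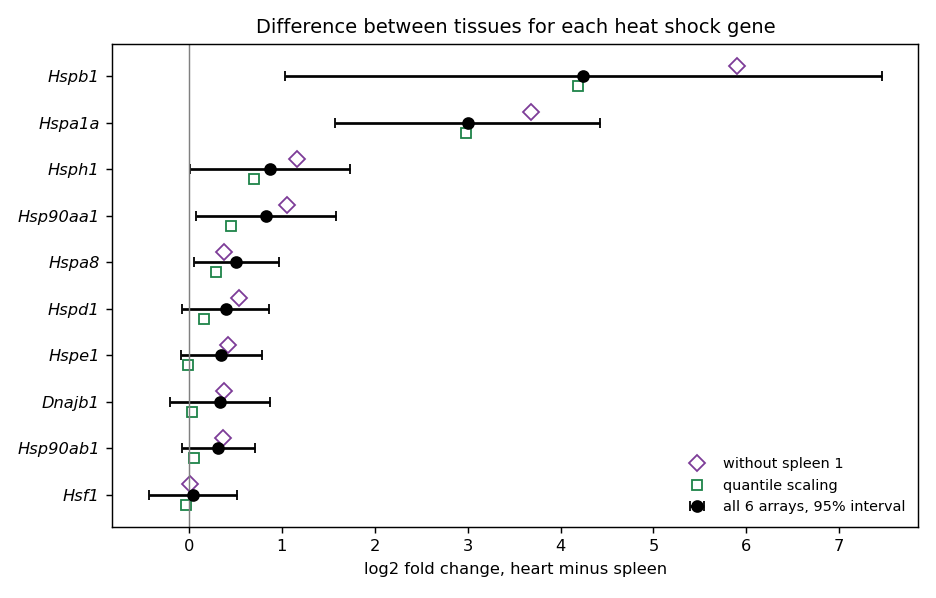
Difference between the tissues for each heat shock gene (log2, heart minus spleen); black points with bars are all 6 arrays with the 95% interval, purple diamonds leave out spleen 1 and green squares use quantile scaling. Hspb1 and Hspa1a lie at 4.24 and 3.00 and the other 8 genes between 0.045 and 0.88, and without spleen 1 Hspb1 moves to 5.90.

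The 10 genes varied more among the spleens than among the hearts. The SD was larger over the spleens for 10 of 10 genes, as it was for 84.3% of all tested genes. The median SD of the 10 genes was 0.095 over the hearts and 0.31 over the spleens, against 0.14 and 0.41 for all genes. Spleen 1 was the highest spleen for 7 of the 10 genes (Hspa1a, Hsp90aa1, Hsp90ab1, Hspb1, Hspd1, Hspe1 and Hsph1), spleen 4 for Hspa8 and Hsf1, and spleen 2 for Dnajb1. With each gene's mean over the 6 arrays set to 0, the median of the 10 genes was 0.24, 0.23 and 0.23 in hearts 1, 2 and 4, and −0.044, −0.28 and −0.40 in spleens 1, 2 and 4. The hearts were thus nearly equal, and spleen 1 lay between them and the other spleens.

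The genes most like Hspa1a were sought among 14660 genes above background on all 6 arrays, by the root mean square difference between log2 levels after each gene's own mean was set to 0. The nearest was Mgat4a, an enzyme that branches the sugar chains of glycoproteins, at 0.108. It was followed by Gm9115 (0.314), Abca1, a pump for cholesterol (0.388), Cish, an inhibitor of cytokine signalling (0.402), and Odc1, the first enzyme of polyamine synthesis (0.407). Mgat4a had log2 levels of −0.11, −0.03 and −0.42 in hearts 1, 2 and 4 and −1.65, −3.52 and −4.31 in spleens 1, 2 and 4, so that it was highest in spleen 1 and lowest in spleen 4 among the spleens, as was Hspa1a. No other heat shock gene above background on all arrays was as close. The nearest were Hsp90aa1 (1.18) and Hsph1 (1.22), at ranks 625 and 765, and Hsf1 was the farthest (1.69, rank 7865). Hspb1 was not ranked, being dim on some arrays. The levels were not scaled, so a gene with a small difference lies far from Hspa1a whatever the order of its arrays. These distances describe 6 arrays and carry no test.

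Other chaperones were read from lists of 110 genes, of which 98 were tested. Of these, 12 (12.2%) were called higher in heart and 2 lower, beside 8.88% and 6.52% of all genes, and the median difference was 0.38. The list of endoplasmic reticulum chaperones gave 6 of the 12 higher calls, and without that list 6 of 83 (7.23%) were called higher and 2 lower. These 83 still hold Hsp90b1, which was called higher and belongs to the same compartment but stands in the HSP90 list. The higher count was 16 without spleen 1, 7 without spleen 2 and 24 without spleen 4, beside 9.41%, 6.44% and 15.2% of all genes called higher in those fits. It was 0, 0 and 1 without hearts 1, 2 and 4, beside 1.96%, 2.08% and 2.15% of all genes, when 22, 21 and 29 of the 98 had an unadjusted p under 0.05 in either direction. The counts thus moved in the same direction as those of the whole array.

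In the lists of HSP70 relatives, J-domain proteins, their cofactors, HSP90 co-chaperones and small heat shock proteins, a single gene or none passed in each direction. Of 8 tested HSP70 relatives, Hspa1l, a form known from the testis, was called higher (1.63 ± 0.39, SE, adjusted p = 0.0381). Hspa1l was above background on 1 of 3 spleen arrays and differed by 1.16 with the dim arrays held at the floor, and it was not called without spleen 1 (1.51, adjusted p = 0.0781). Hspa4, an HSP110-type exchange factor, did not pass (0.54, adjusted p = 0.0946). Hspa4 was 0.53 without spleen 1, and it was called without spleen 4 (0.65, adjusted p = 0.0368). Of 15 J-domain proteins, Dnajb4 rose in heart (1.36 ± 0.31, SE, adjusted p = 0.0324) and Dnajc9, a histone chaperone, fell (−2.37 ± 0.47, SE, adjusted p = 0.0232), while Dnajc5 differed by 0.14 (adjusted p = 0.695). Without spleen 1 the values were 1.67 for Dnajb4, −2.10 for Dnajc9 and 0.19 for Dnajc5. Dnajb4 lost its call in 9 of 20 alternative settings. Of 8 nucleotide exchange and holding factors, Bag4 was lower in heart (−1.04 ± 0.25, SE, adjusted p = 0.0394), and Bag1 did not pass (0.59, adjusted p = 0.0931). Bag4 lost its call in 15 of 20 settings, quantile scaling among them (adjusted p = 0.0681). Without spleen 1 the values were −1.12 for Bag4 and 0.45 for Bag1. Of 13 tested co-chaperones of HSP90, 0 were called in limma and 3 had an unadjusted p under 0.05. Cdc37, which brings kinases to HSP90, differed by −0.00403 (adjusted p = 0.993; −0.17 without spleen 1). Of 4 tested genes in the list of small heat shock proteins, Cryab (alpha B-crystallin) was called higher (1.27 ± 0.26, SE, adjusted p = 0.0237). Hspb11 differed by 0.16 (adjusted p = 0.723). Without spleen 1 Cryab was 1.09 and Hspb11 −0.017. Cryab is abundant in heart muscle, and the cardiomyocyte sums given above were higher in heart. The other tested genes of this list did not pass and went in both directions. Cryaa differed by 0.43 (adjusted p = 0.237) and Hspb6 by −0.89 (adjusted p = 0.0949), with all hearts below all spleens for Hspb6. The part of cardiomyocytes in the Cryab value was not tested.

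The chaperonin TRiC and its partner prefoldin fold actin and tubulin. The mean was higher in heart for 14 of 14 genes, and for 10 of 14 with quantile scaling. The median difference of 0.39 became 0.19 with quantile scaling and 0.17 within slide 2. The median of all genes was 0.10, and it was 0.037 with quantile scaling and 0.012 within slide 2. Of the 14, 1 was called, the prefoldin subunit Pfdn2 (1.13 ± 0.19, SE, adjusted p = 0.0151). Pfdn5 did not pass (0.39, adjusted p = 0.367) and turned to −0.15 within slide 2. Without spleen 1 the values were 1.09 for Pfdn2 and 0.33 for Pfdn5, and without spleen 4 Pfdn5 was called (0.65, adjusted p = 0.0470). Of 12 other mitochondrial chaperones and proteases, Dnajc19, a J-domain protein of the import motor, was called higher (2.11 ± 0.35, SE, adjusted p = 0.0155), and Grpel1, the exchange factor of mitochondrial HSP70, did not pass (0.55, adjusted p = 0.103). Without spleen 1 they were 1.81 and 0.41, and within slide 2 Dnajc19 was 1.26. Of 7 tested heat shock factors and regulators other than Hsf1, 0 were called in limma and 1 had an unadjusted p under 0.05, and Vcp, a segregase for misfolded proteins, differed by 0.47 (adjusted p = 0.153; 0.33 without spleen 1).

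Chaperones of the endoplasmic reticulum had a median difference of 0.90 (0.10 for all genes), with 14 of 15 means higher in heart. Of the 15, 6 were called higher (40% of the list), beside 8.88% of all tested genes. With slide as a fixed block the median was 0.58 (0.012 for all genes), with 13 of 15 higher. In that fit 0 were called, beside 0.44% of all genes called higher. Hspa5, which encodes the HSP70 of that compartment (BiP), rose by 1.25 ± 0.18 (SE, adjusted p = 0.00945), with a mean log2 level of 6.22 ± 0.11 (SD, n = 3) over the hearts against 4.97 ± 0.16 (SD, n = 3) over the spleens. Pdia6, a disulfide isomerase, rose by 1.33 ± 0.25 (SE, adjusted p = 0.0209). Serpinh1, the collagen chaperone HSP47, differed by 4.84 ± 0.73 (SE, adjusted p = 0.0115), or 3.60 with the dim spleen arrays at the floor. Serpinh1 was above background on 1 of 3 spleen arrays. Like the fibroblast sums given above, it was higher in the hearts and highest in heart 2. Among the spleens it was highest in spleen 1 (−4.84), whereas the fibroblast sum was highest in spleen 2 (0.187, against 0.155 in spleen 1). The part of fibroblasts in the Serpinh1 value was not tested. P4hb did not pass (0.82, adjusted p = 0.115). Without spleen 1 the values were 1.31 for Hspa5, 1.15 for Pdia6, 5.61 for Serpinh1 and 0.50 for P4hb, and within slide 2 Pdia6 was 0.82. The HSP90 of the same compartment, Hsp90b1, was called higher (0.90 ± 0.23, SE, adjusted p = 0.0468), but lost its call in 14 of 20 settings, among them without spleen 1 (0.79, adjusted p = 0.0787), with arrays scaled to their median (1.03, 0.0830) and with quantile scaling (0.54, 0.133). Its mitochondrial relative Trap1 differed by 0.11 (adjusted p = 0.681; 0.087 without spleen 1). The count of 6 became 6, 3 and 9 without spleens 1, 2 and 4, beside 9.41%, 6.44% and 15.2% of all genes called higher. It was 0, 0 and 1 without hearts 1, 2 and 4, beside 1.96%, 2.08% and 2.15%. Of the chaperones named as called, all lost the call without heart 1 or heart 2, and all but Serpinh1 without heart 4. Without spleen 2 it was lost by Bag4, Hsp90b1, Cryab, Dnajc9, Dnajb4 and Pdia6, and without spleen 4 by Bag4.

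Immediate early genes are induced within minutes of a stimulus and by the handling of cells. Their mean was higher in heart for 19 of 19 tested genes, as it was for Hspa1a. The order of the spleens was not the same in all of them. Junb (0.57, −0.55 and −1.05 in spleens 1, 2 and 4) had the order of Hspa1a, whereas Atf3 (0.40, 0.54 and 1.95) had the reverse. Of 19 tested, 14 were called higher and 0 lower, beside 8.88% and 6.52% of all tested genes, with a median difference of 2.23. This list, like the others, was chosen with earlier results of these data known. Ier3 rose by 5.38 ± 0.29 (SE, adjusted p = 0.000507), Egr2 by 6.48 ± 0.90 (SE, adjusted p = 0.00911) and Fosb by 5.68 ± 0.98 (SE, adjusted p = 0.0164), while Jund did not pass (1.59, adjusted p = 0.0659). Without spleen 1 they were 5.65, 7.60, 6.86 and 1.96 in that order, and Jund was then called (adjusted p = 0.0363), as it was without spleen 2 (1.05, adjusted p = 0.0412). Fosb lost its call without heart 1, heart 2 or heart 4 (adjusted p from 0.0688 to 0.0749), and Egr2 without heart 4 (adjusted p = 0.0532). Within the earlier date Egr2 (5.94, adjusted p = 0.0630) and Fosb (5.27, 0.0958) did not pass. The number called higher was 15, 11 and 14 without spleens 1, 2 and 4, beside 9.41%, 6.44% and 15.2% of all genes. It was 6, 6 and 5 without hearts 1, 2 and 4, beside 1.96%, 2.08% and 2.15% of all genes. With slide as a fixed block it was 1, beside 0.44% of all genes, and Egr2 and Fosb lost their call. The part of cell handling in the values of Hspa1a and of these genes was not tested.

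**Figure D4:**
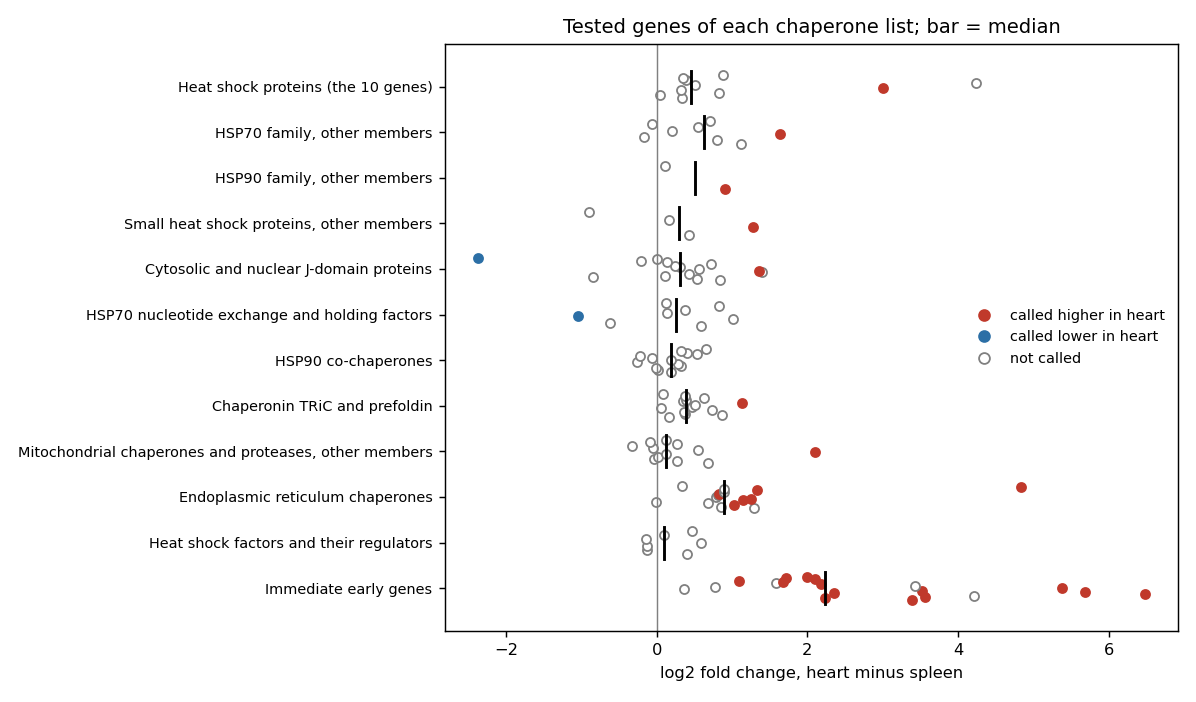
Difference between the tissues (log2, heart minus spleen) for each tested gene of the 10 heat shock genes, of 10 lists of other chaperones and regulators, and of immediate early genes; red points were called higher in heart, blue points lower, and open points were not called, and the bar is the median of the list. The medians are 0.45 for the heat shock genes, 0.90 for chaperones of the endoplasmic reticulum and 2.23 for immediate early genes.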

How the data were processed

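The members and the lists of other genes were chosen with earlier results of these data known. Per the file headers, the authors' deposited files give each spot's intensity, read and background-corrected by Agilent Feature Extraction (version 10.7.3.1). From the log2 processed signal, each array's 75th percentile was subtracted, leaving out control spots and outlier-marked spots, and spots of a probe were averaged. A probe was tested if every array of either tissue read it well above background (21801 probes), and a gene was read from its brightest tested probe. By accession, 26412 probes were named through RefSeq. Heart and spleen were compared with limma 3.58.1 (lmFit, eBayes, two-sided) in R 4.3.3 with data.table (version 1.17.8); the scripts were tested on simulated data. Figures used matplotlib 3.10.9 in Python 3.11.15. The authors' deposited value table holds log2 values that followed quantile-normalized signals in differences between arrays (r at least 0.9998 over 19313 probes); each column's median was 0, the baseline subtracted per probe is unknown, and it served only as an alternative.

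Beside the 10 genes, the text names from each list the 3 called genes with the largest change and the brightest gene not called, and the 5 genes most like Hspa1a. Other genes are named only where the reading of a result turns on them. Alternatives changed scaling, background correction, the filter, the probe rule, the variance model and blocks, and left out each array. Probe coordinates are those of the files (mm9), promoter coordinates those of GRCm38.p6. P-values measure the spread between 3 individually analysed samples a tissue.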

Additional observations from a re-analysis of the deposited data

How the results depend on the processing

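Each gene's difference was recomputed under 20 alternatives (19 for Hspb1, Hspa1l and Serpinh1, which drop out where a probe must be above background on all 6 arrays). Marker sums, SDs, non-overlap and likeness to Hspa1a were computed only once. The count of heat shock genes called higher in heart was 1; it became 2 with arrays scaled to their median, with normexp background correction and with array weights per tissue (7.89%, 8.96% and 8.33% of all genes called higher), and 0 with slide as a fixed block and within the earlier date (0.44% and 6.32%). It lay between 0 and 2 with 1 array left out, when 1.96% to 15.2% of all genes were called higher. Their median difference of 0.45 became 0.23 with quantile scaling, 0.23 in the authors' deposited values and 0.73 with slide as a fixed block. The median of all genes, 0.10, became 0.22 with arrays scaled to their median and 0.037 with quantile scaling. Over the whole table, 2521 genes were called, 1449 with no filter on dim probes, 85 with slide as a fixed block (slide 2 alone joins the tissues), and between 444 and 4090 with 1 array left out.

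The sign of Hspe1 turned with quantile scaling (−0.015) and in the authors' values (−0.012). That of Hsf1 turned with quantile scaling (−0.030), in the authors' values (−0.027), with slide as a fixed block (−0.20) and without spleen 2 (−0.071 to 0.20 over arrays left out). Hspb11 turned with slide as a fixed block (−0.37) and without spleen 1 (−0.017 to 0.42 over arrays left out), and Pfdn5 with slide as a fixed block (−0.15). Dnajc5 turned with quantile scaling (−0.13), in the authors' values (−0.14), within the earlier date (−0.076) and without spleen 4 (−0.032 to 0.27 over arrays left out). Cdc37, near 0, turned with arrays scaled to their median (0.12), within the earlier date (0.086), and without heart 2 (0.038), spleen 2 (0.042) and spleen 4 (−0.17 to 0.12 over arrays left out). The cause of these turns was not tested.

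Same-numbered hearts and spleens did not deviate together (correlations of −0.053, 0.040 and 0.0091 across genes), so the numbers were not taken to pair samples. With the replicate number as a block, 1587 genes were called over the whole table, and Hspa1a kept its call (adjusted p = 0.0317). The 2 spleen arrays on which Hspb1 was not well above background limit the size of its difference.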
